A study of Mus musculus with 15 samples.

Results

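The antioxidant and glutathione enzymes of the mouse hippocampus were followed in 51 genes, of 16401 named genes with values on the arrays. A gene was taken by its platform symbol alone, whatever its level. The set held the superoxide dismutases, catalase, glutathione peroxidases, peroxiredoxins, thioredoxins and their reductases, the enzymes that make and recycle glutathione, the glutathione S-transferases, and the regulators and targets Nfe2l2, Keap1, Nqo1 and Hmox1. Another matching gene, Gpx5, had no value and was not analysed here. Where a gene had several array features, the brightest over all arrays was used, and 17 of the 51 genes had several.

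Whole hippocampus from adult female mice was measured on 15 single-colour arrays in 3 groups of 5: sedentary SAMR1, sedentary SAMP8 and exercised SAMP8. SAMP8 is a senescence-accelerated inbred line known for early memory deficits, and SAMR1 is the senescence-resistant line it is set against. The lines differ at many loci, so a difference between them cannot be assigned to 1 gene. The labels give neither the ages nor the kind and length of the exercise, and no exercised SAMR1 mice were among the samples. The labels call the arrays of a group biological replicates and do not say whether each is a single mouse. The p-values therefore rest on the spread between these arrays, whatever its source.

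Superoxide dismutases turn superoxide into hydrogen peroxide, which catalase, the glutathione peroxidases and the peroxiredoxins then remove. Glutathione supplies the electrons for the glutathione peroxidases and is returned to its reduced form by glutathione reductase, while thioredoxin and its reductases do the same for the peroxiredoxins. Glutathione S-transferases join glutathione to reactive compounds, including products of lipid oxidation. The transcription factor NRF2, encoded by Nfe2l2 and held in check by KEAP1, is known to raise the transcription of many of these genes through the antioxidant response element. In brain, astrocytes are known for strong NRF2 activity and for supplying neurons with glutathione precursors.

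The core of that element, TGACNNNGC, was looked for on both strands of the RefSeq promoter windows (assembly GRCm38.p6), which run from 250 bases before to 50 bases after a gene's start. A window was at hand for 45 of the 51 genes, and 10 of them (22.2%) held a match, against 16.1% of the 13127 tested genes with a window and 12.4% of all 32851 windows. These 10 stretches are shown because they are all the matches found in the set. Each is read 5′ to 3′ in the direction of the gene, with the match in capitals, and a match beginning GC lies on the opposite strand.
Sod1: aggtggGCGTGGTCAgactca
Prdx1: gaaagcGCTGAGTCAtccccc
Srxn1: tgggcaGCTAGGTCAgagtga
Txnrd1: atttttGCTTTGTCAttctga
Gclm: ccgggcGCACCGTCAactctc
Gsta3: caggcaTGACATTGCattttt
Gstm5: gcccacTGACCACGCggaggg
Gstm7: aagaccTGACAAAGCgaagcc
Mgst1: ggcttgGCACGGTCAggaggc
Nfe2l2: cccaccTGACTCCGCcatgcc

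No window was at hand for Gstt2, Gclc, Gsr, Hmox1, Sod3 and Gsta4. The windows of Gstm2 and Gclm are printed whole, because the results turn on these genes. That of Gclm, at chr3:122245307-122245606 on the plus strand, holds the match in capitals. That of Gstm2, at chr3:107986371-107986670 on the minus strand, holds none, which says only that these letters are not in this window.
Gclm: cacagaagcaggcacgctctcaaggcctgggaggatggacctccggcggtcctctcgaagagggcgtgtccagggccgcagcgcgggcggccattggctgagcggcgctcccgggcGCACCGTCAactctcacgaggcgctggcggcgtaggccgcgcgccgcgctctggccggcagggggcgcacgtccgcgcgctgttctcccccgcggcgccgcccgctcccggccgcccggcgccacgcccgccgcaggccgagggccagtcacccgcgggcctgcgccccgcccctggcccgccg
Gstm2: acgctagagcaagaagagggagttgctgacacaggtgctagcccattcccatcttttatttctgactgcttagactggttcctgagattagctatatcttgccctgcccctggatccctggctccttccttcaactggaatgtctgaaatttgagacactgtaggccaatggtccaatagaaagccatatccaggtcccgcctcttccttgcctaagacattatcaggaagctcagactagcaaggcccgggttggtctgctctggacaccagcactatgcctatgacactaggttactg

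Levels are given as the log2 of the intensity, where a step of 1 is a 2-fold change, after intensities under 39.17 were raised to that floor (5.29 on the log2 scale). A level belongs to its array feature, so levels are not set against each other between genes. Arrays of a group resembled each other closely, with a median correlation over genes to the rest of the group between 0.988 and 0.994. At the floor lay 18 of the 765 values of the set, in Sod3, Gpx6, Gsta2, Gstp3 and Mgst2, and no gene was at the floor on every array. A difference was called where the adjusted p of limma's test was under 0.05 after Benjamini-Hochberg adjustment over all 16401 genes. Errors of levels are SDs over 5 arrays, and errors of differences are standard errors of the fit.

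Between the sedentary lines, 1 of the 51 genes differed: Gstm2, a mu class glutathione S-transferase, was 1.88-fold higher in SAMP8. None was called lower. Over all genes 2.63% were called, 1.46% higher and 1.16% lower, so 1 of 51 is near the background. Of the differences of the set, 26 lay above 0 and 25 below, with a median of 0.00 and a median size of 0.10 on the log2 scale, against 0.00 and 0.10 over all genes. At an unadjusted p under 0.05 were 5 of the 51, against 11.2% of all genes.

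Gstm2 stood at 8.32, 8.08, 8.24, 8.47 and 7.73 on the SAMR1 arrays, replicates 1 to 5. On the sedentary SAMP8 arrays it stood at 9.44, 9.15, 9.19, 8.85 and 8.75. Every sedentary SAMP8 array was above every SAMR1 array. Groups that did not overlap were seen for this gene alone among the 51, against 4.19% of all genes (2.26% higher and 1.93% lower in SAMP8). The means were 8.17 ± 0.28 and 9.07 ± 0.28 (SD, n = 5 each), and the difference was 0.91 ± 0.22 on the log2 scale, with a 95% interval of 0.44 to 1.37 and an adjusted p of 0.0339 in limma. In whole tissue, more cells of a type and more RNA per cell cannot be told apart.

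Same-numbered arrays of the sedentary lines deviated together, so the lines were also compared as 5 pairs. Gstm2 was higher in SAMP8 by 1.12, 1.07, 0.94, 0.38 and 1.02 in pairs 1 to 5. With the pair as a block in a fit of these 10 arrays its adjusted p was 0.0046, and the count of all genes called went from 431 to 648. With the block over all 15 arrays, which pairs the exercised arrays by number alone, the call was lost (adjusted p = 0.0811). It was lost when the floor was raised to the 20th percentile (adjusted p = 0.0749). It was also lost without SAMR1 replicate 1, 2, 3 or 5 or without sedentary SAMP8 replicate 1, 2 or 3, where the difference stayed between 0.80 and 0.99 and the adjusted p reached 0.0980.

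Arrays of exercised SAMP8 held Gstm2 at 8.46, 8.49, 8.95, 8.37 and 9.68, a mean of 8.79 ± 0.55 (SD, n = 5). Replicate 5 was above every other array of the study, and replicates 1, 2 and 4 lay between the sedentary groups or within SAMR1. Replicate 5 also had the highest meningeal, choroid plexus and pericyte marker means of the exercised arrays (9.999, 9.57 and 9.54). Their part in its Gstm2 level was not tested. The difference from sedentary SAMP8 was -0.28 ± 0.22, with a 95% interval of -0.75 to 0.18, which includes 0.

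**Figure D1:**
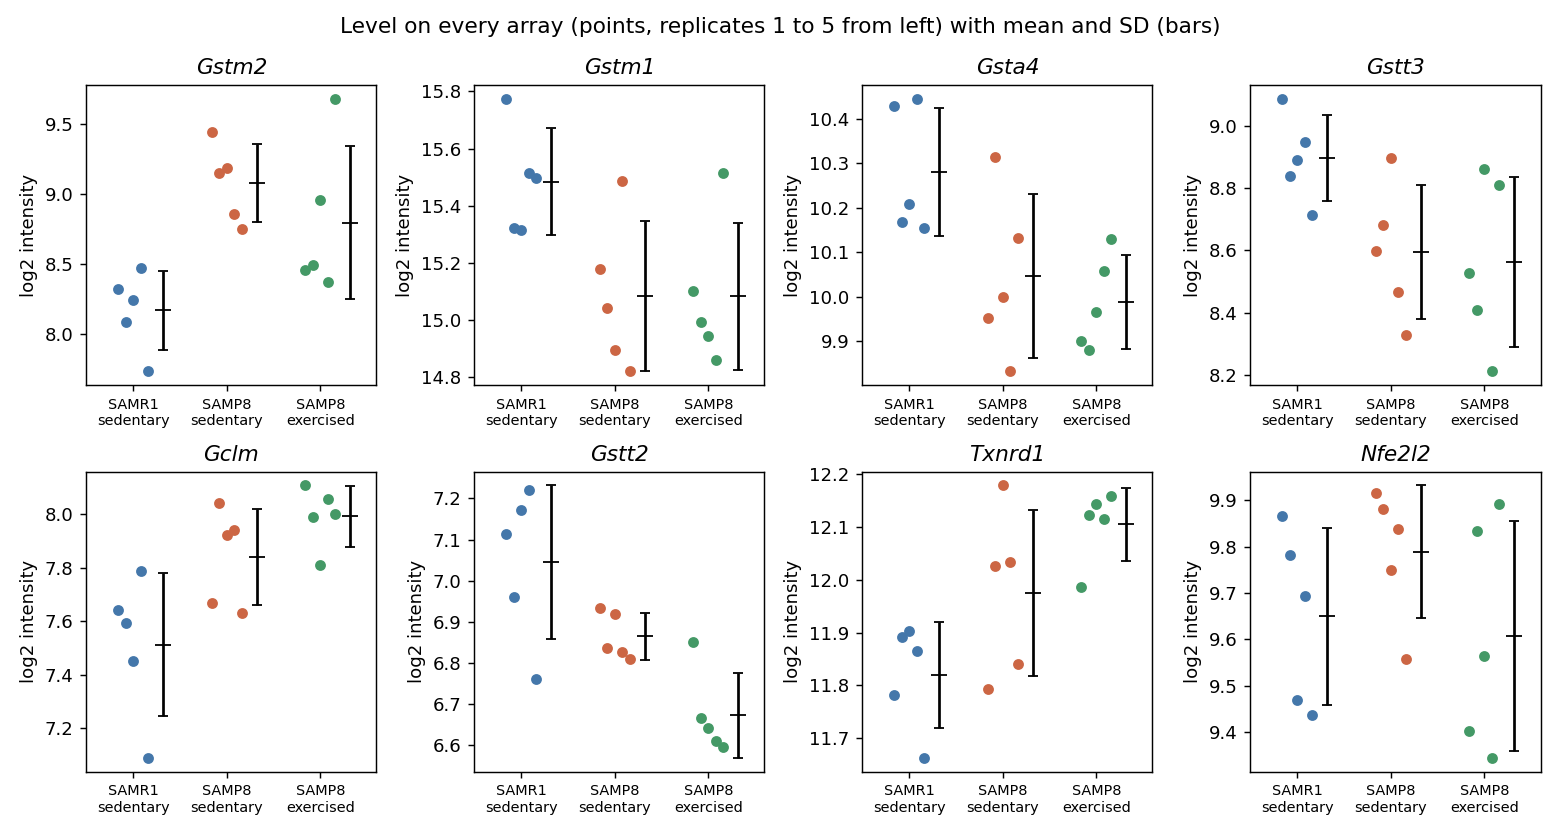
The plots show the log2 intensity of 8 genes on each of the 15 arrays, with points for replicates 1 to 5 from left to right and bars for the mean and SD of each group. Gstm2 does not overlap between sedentary SAMR1 (7.73 to 8.47) and sedentary SAMP8 (8.75 to 9.44), while the vertical axes differ between genes and do not start at 0.

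The other 6 mu class genes all had differences below 0 between the sedentary lines, and none passed the test. Gstm1, the mu class enzyme known for wide expression in mouse tissues, stood at 15.78, 15.32, 15.32, 15.51 and 15.50 in SAMR1. In sedentary SAMP8 it stood at 15.18, 15.04, 14.90, 15.49 and 14.82. It was lower in SAMP8 in all 5 pairs, yet SAMP8 replicate 4 lay within the SAMR1 range. The difference was -0.40 ± 0.14 with an adjusted p of 0.217, and 0.0817 in the blocked fit of the sedentary arrays. The feature used is bright, at a mean intensity of 45855 in SAMR1, and whether it saturated was not tested. The second Gstm1 feature, dimmer than the first, differed by -0.25. Gstm3, Gstm4, Gstm5, Gstm6 and Gstm7 differed by -0.06 to -0.18.

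The mu class genes are close in sequence and lie side by side on chromosome 3 in the RefSeq order. How far their array features read each other was not tested. The 10 tested genes nearest to Gstm2 include the other 6 mu class genes. Of these 10, 0 were called between the sedentary lines, against 2.63% of all genes. Amigo1, the next tested gene beyond them on one side, was called there. Gstm2 had 1 array feature here.

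The dismutases Sod1, Sod2 and Sod3, which are the cytosolic, mitochondrial and extracellular enzymes, differed by -0.10, -0.03 and -0.29 between the sedentary lines. None passed the test. Sod1 was lower in SAMP8 in all 5 pairs by the feature used, whose mean level was 15.12. Of its other 11 features, 1 had a mean level of 7.09 and a difference of 0.17, opposite to that of the feature used. The rest had mean levels of 5.95 to 6.19, close to the floor, and are not read for a direction. Catalase stood at 9.95 ± 0.20 in SAMR1 and 10.11 ± 0.06 in sedentary SAMP8, a difference of 0.16 ± 0.09 with an adjusted p of 0.592.

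No glutathione peroxidase passed the test. Gpx1, the abundant cytosolic enzyme, stood at 12.50 ± 0.12 and 12.61 ± 0.15 in the sedentary lines. Gpx4, which reduces lipid hydroperoxides and is known for restraining ferroptosis, stood at 14.24 ± 0.12 and 14.17 ± 0.08. Gpx3, Gpx6 and Gpx7 differed by 0.07, 0.15 and 0.07. The 7 differences ran from -0.22 in Gpx8 to 0.20 in Gpx2, which were also the least precise, with standard errors of 0.29 and 0.25.

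Of the peroxiredoxins, Prdx1, Prdx2, Prdx3 and Prdx4 differed by -0.06, 0.11, -0.08 and 0.03. Prdx2, the peroxiredoxin known for high expression in neurons, had 12 features, 6 above 0 and 6 below. Their median was -0.002, and the feature used had the highest difference of them. Sulfiredoxin, Srxn1, which repairs over-oxidised peroxiredoxins, differed by 0.09 ± 0.07. Of the thioredoxins, the cytosolic Txn1 and the mitochondrial Txn2 each differed by -0.05, and of their reductases Txnrd2 and Txnrd3 by -0.01 and 0.09. Thioredoxin reductase 1, Txnrd1, which recycles cytosolic thioredoxin, stood at 11.78, 11.89, 11.90, 11.86 and 11.66 in SAMR1. In sedentary SAMP8 it stood at 11.79, 12.03, 12.18, 12.03 and 11.84. It was higher in SAMP8 in all 5 pairs, but the groups overlapped and the difference of 0.15 ± 0.08 had an adjusted p of 0.55.

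The subunits of glutamate-cysteine ligase, which makes the first and rate-limiting step of glutathione synthesis, had differences of opposite sign. The modifier subunit Gclm stood at 7.64, 7.59, 7.45, 7.79 and 7.09 in SAMR1 and at 7.67, 8.04, 7.92, 7.94 and 7.63 in sedentary SAMP8. It was higher in SAMP8 in every pair, with a difference of 0.33 ± 0.12 and an adjusted p of 0.25, and a difference of 0.14 with meningeal and choroid plexus marker means as covariates. The catalytic subunit Gclc stood at 10.82, 10.84, 10.75, 10.86 and 10.76 in SAMR1 and at 10.54, 10.77, 10.71, 10.58 and 10.64 in sedentary SAMP8. It was lower in SAMP8 in every pair, with a difference of -0.16 ± 0.10 and an adjusted p of 0.62. Neither passed the test. Glutathione reductase, Gsr, stood at 9.37 in both groups.

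Gsta4, the alpha class transferase known for conjugating the lipid oxidation product 4-hydroxynonenal, stood at 10.43, 10.17, 10.21, 10.44 and 10.16 in SAMR1. In sedentary SAMP8 it stood at 9.95, 10.31, 9.998, 9.83 and 10.13. SAMP8 replicate 2 lay within the SAMR1 range. The difference was -0.23 ± 0.10 with an adjusted p of 0.351, and -0.14 with limma's array weights. All 10 features of Gsta4 had a difference below 0, from -0.30 to -0.23, and the mean of the 10 gave an adjusted p of 0.121. These features read the same RNA on the same arrays, so they are not separate replicates. Whether they share a sequence was not tested. The other alpha class genes, Gsta1, Gsta2 and Gsta3, differed by 0.13, 0.15 and 0.14, and Gsta2 had values at the floor.

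The theta class gene Gstt3 stood at 9.09, 8.84, 8.89, 8.95 and 8.71 in SAMR1 and at 8.60, 8.68, 8.90, 8.47 and 8.33 in sedentary SAMP8. The groups overlapped, and the difference was -0.30 ± 0.13 with an adjusted p of 0.371. Gstt1, Gstt2 and Gstt4 differed by 0.00, -0.18 and 0.09. The omega, pi, kappa and microsomal transferases differed by -0.13 to 0.17, and none passed the test. Gstp1, the pi class enzyme, stood at 15.13 ± 0.16 and 15.15 ± 0.14.

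Nfe2l2 itself stood at 9.65 ± 0.19 in SAMR1 and 9.79 ± 0.14 in sedentary SAMP8, a difference of 0.14 ± 0.12 with an adjusted p of 0.778. Its 3 features all had a difference above 0, and 1 of them, at a mean level of 5.40, lay near the floor. Keap1, Nqo1 and Hmox1, of which the last encodes the inducible haem oxygenase, differed by 0.06, -0.09 and -0.07. In all, 8 of the 51 genes moved one way in every pair: Txnrd1, Gclm, Gstm2 and Nfe2l2 upwards in SAMP8, and Sod1, Gclc, Gstm1 and Gstm5 downwards. Over all genes 17.1% did so, 8.91% upwards and 8.16% downwards.

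**Figure D2:**
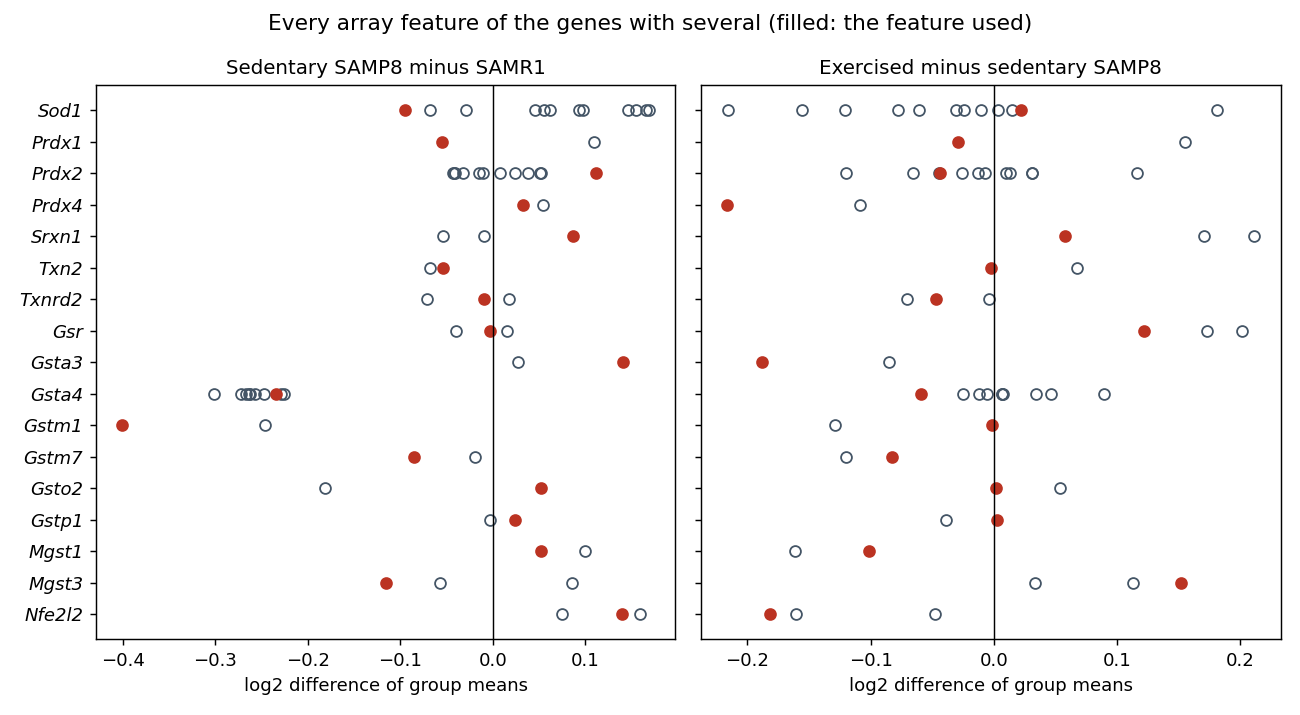
Each point is the log2 difference of group means for 1 array feature of the 17 genes with several, for sedentary SAMP8 minus SAMR1 and for exercised minus sedentary SAMP8, with filled points for the feature used. The 10 features of Gsta4 all lie below 0 in the comparison of lines, while the 12 of Prdx2, at mean levels of 11.73 to 15.02, lie on both sides of 0. Features of a gene are read on the same arrays and are not separate replicates. Of the 12 Sod1 features only the filled one is bright (15.12), and the other 11 have mean levels of 5.95 to 7.09.

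Exercise was compared within SAMP8. None of the 51 genes was called by limma, and 0% of all genes were. Every adjusted p of the set was 1. At an unadjusted p under 0.05 were 3 of the 51, against 3.49% of all genes, and in none did the groups fail to overlap, against 0.439%. Of the differences, 17 lay above 0 and 34 below, with a median of -0.05 on the log2 scale, against 0.01 over all genes. In the same comparison all 18 meningeal and fibroblast markers had differences below 0 (median -0.56), the largest shift of the marker lists. Below 0 were also 15 of 18 choroid plexus markers (median -0.16), 11 of 11 astrocyte markers (median -0.09) and 8 of 9 oligodendrocyte markers (median -0.13). Above 0 were 8 of 13 markers of hippocampal neurons (median 0.13) and 5 of 8 microglial markers (median 0.01). None of these markers was called, and their part in the count of 34 was not tested. The summed intensity of the astrocyte markers ran from 147594 to 168349 in sedentary SAMP8 and from 136824 to 154590 in exercised SAMP8, and that of the oligodendrocyte markers from 61797 to 90449 and from 53160 to 75326. By family, the 3 dismutases had differences above 0 (0.02 to 0.11), the 4 peroxiredoxins below 0 (-0.22 to -0.03) and 6 of 7 glutathione peroxidases below 0. The 4 theta class genes lay below 0 (-0.19 to -0.03), as did 5 of the 7 mu class genes. Of the thioredoxin system 4 of 6 lay above 0. None of these families had a gene that passed the test.

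The 3 genes at an unadjusted p under 0.05 were Gpx6, Gpx7 and Gstt2. Gpx7, a peroxidase of the endoplasmic reticulum, stood at 7.92, 7.90, 7.86, 7.73 and 7.84 in sedentary SAMP8 and at 7.82, 7.74, 7.56, 7.48 and 7.71 in exercised SAMP8. The 2 highest exercised arrays lay within the sedentary range, and the difference was -0.19 ± 0.09 with an adjusted p of 1, and -0.11 with the meningeal and choroid plexus marker means as covariates. Gpx6 stood at 5.85, 5.66, 5.42, 5.77 and 5.37 in sedentary SAMP8 and at 5.29, 5.32, 5.29, 5.41 and 5.29 in exercised SAMP8. The exercised values lay at or near the floor, so the difference of -0.29 ± 0.12 is one of dim values, and with no floor it was -0.73.

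Prdx4, the peroxiredoxin of the secretory pathway, stood at 9.82, 9.96, 10.05, 9.86 and 9.80 in sedentary SAMP8 and at 10.04, 9.41, 9.34, 9.77 and 9.85 in exercised SAMP8, and exercised replicates 2 and 3 lay well below the rest. The difference was -0.22 ± 0.12, which became -0.13 without exercised replicate 3 and -0.09 with the meningeal and choroid plexus marker means as covariates. Mgst3, a microsomal transferase, stood at 10.46, 10.68, 10.47, 10.66 and 10.60 and, after exercise, at 10.83, 10.56, 10.64, 10.88 and 10.72, a difference of 0.15 ± 0.10 between overlapping groups, and 0.10 as the mean of its 3 features.

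Nfe2l2 stood at 9.92, 9.88, 9.75, 9.84 and 9.56 in sedentary SAMP8 and at 9.40, 9.83, 9.56, 9.34 and 9.89 in exercised SAMP8. The groups overlapped, and the difference was -0.18 ± 0.12 with an adjusted p of 1. Its 3 features, the dim one included, were all below 0. Hmox1 had the widest spread of the regulators and targets after exercise, at 7.93, 8.21, 9.39, 9.02 and 8.55, against 8.57 to 8.91 in sedentary SAMP8.

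What the arrays allow is seen from the 95% intervals of the differences, taken from values raised to the floor. Where values lay at the floor an interval can be too narrow, and the Gpx6 difference was larger with no floor. For exercise within SAMP8, all 51 lay within a 2-fold change either way and 49 within 1.5-fold, the others being Gpx8 (-0.90 to 0.35) and Gstm2 (-0.75 to 0.18). Between the sedentary lines 50 lay within 2-fold and 45 within 1.5-fold. The median standard error of the set was 0.12, the same as over all genes.

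**Figure D3:**
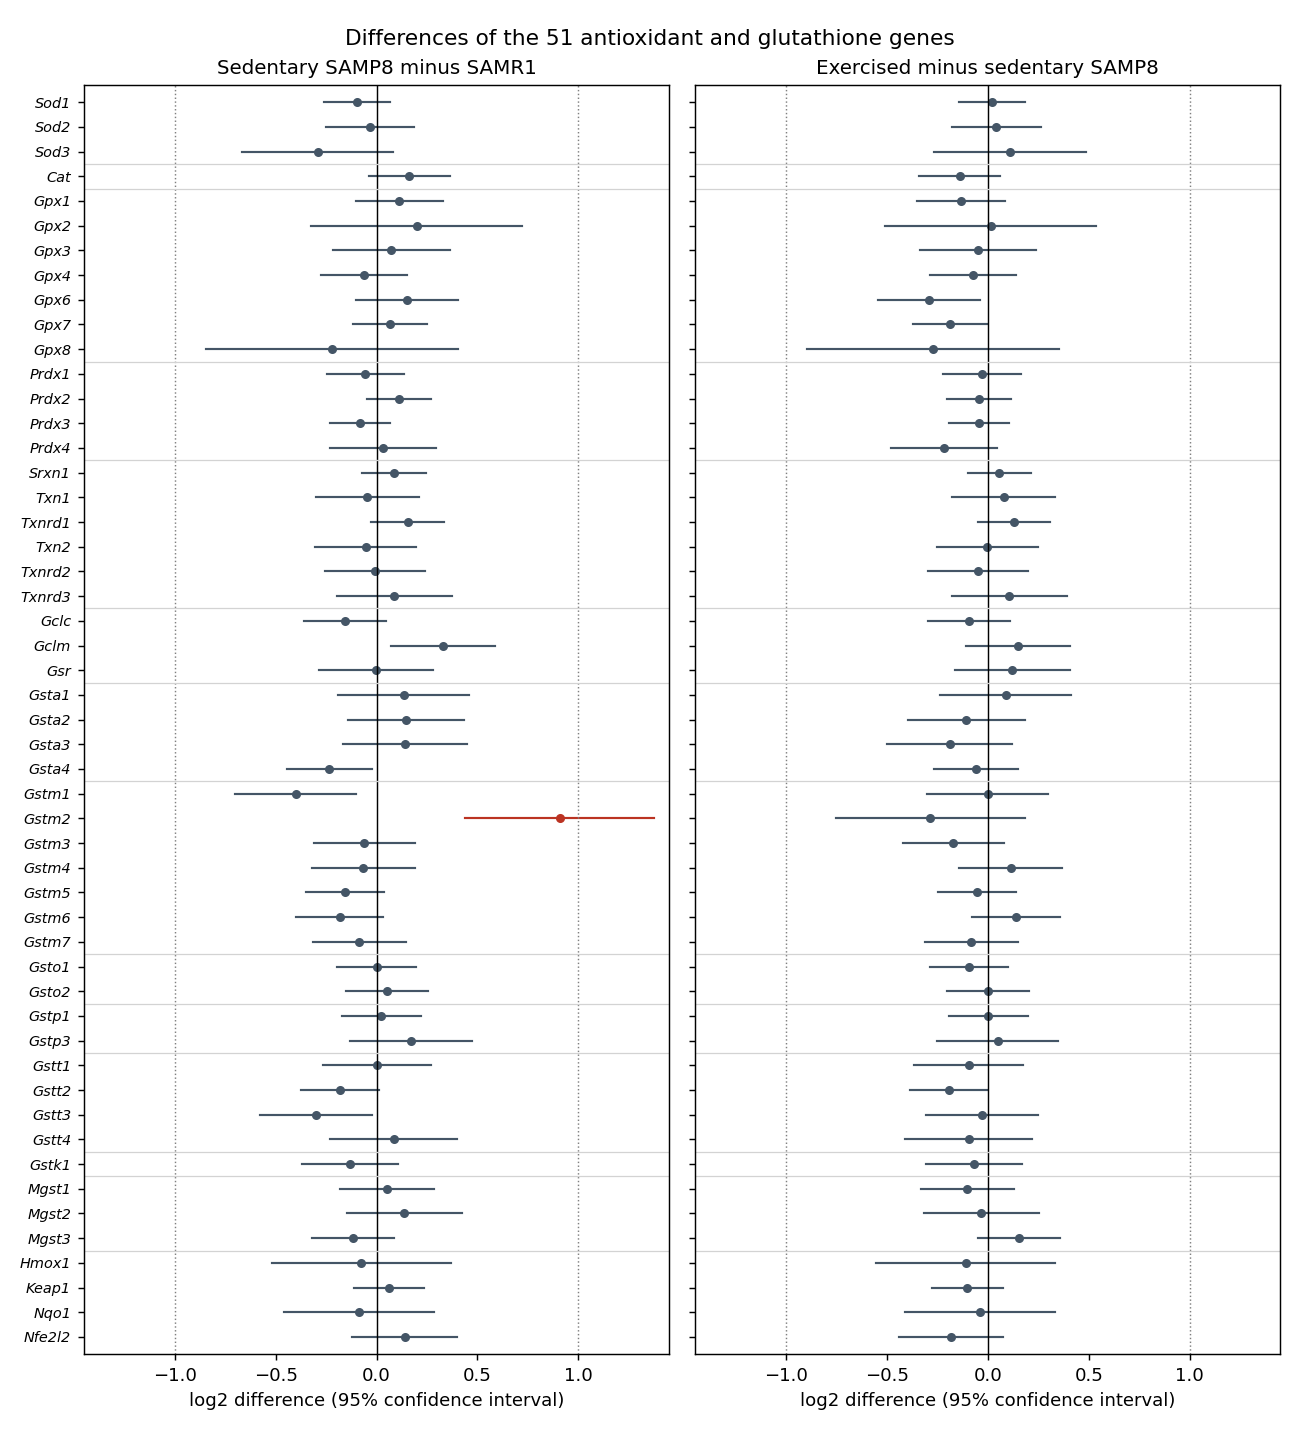
Points are the log2 differences of the 51 genes in each comparison and lines their 95% confidence intervals. Gstm2, at 0.91 with an interval of 0.44 to 1.37, stands farthest from 0 in the comparison of sedentary lines. For exercise within SAMP8 every interval, taken from floored values, stays within a 2-fold change.

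Exercised SAMP8 was also compared with sedentary SAMR1. This comparison joins line and exercise, which cannot be told apart in it, and it shares its arrays with the others. Of the 51 genes, 2 were called, Gclm higher and Gstt2 lower, against 3.6% of all genes, of which 1.75% were higher and 1.85% lower. At an unadjusted p under 0.05 were 9 of the 51, against 15.9% of all genes. Groups did not overlap in 4 of the 51, 3 higher and 1 lower, against 4.9% of all genes (2.44% higher and 2.45% lower).

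Gclm stood at 8.11, 7.99, 7.81, 8.06 and 8.0 in exercised SAMP8, above all 5 SAMR1 arrays, whose highest was 7.79. The difference was 0.48 ± 0.12, or 1.39-fold, with an adjusted p of 0.0367, and that from sedentary to exercised SAMP8 was 0.15 ± 0.12. With only the 10 arrays compared the adjusted p was 0.0693. The call was also lost without SAMR1 replicate 1, 2, 3 or 5 or exercised replicate 1, 2, 4 or 5, with an adjusted p of up to 0.0855.

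Gstt2, a theta class transferase, stood at 7.11, 6.96, 7.17, 7.22 and 6.76 in SAMR1 and at 6.93, 6.83, 6.92, 6.83 and 6.81 in sedentary SAMP8. In exercised SAMP8 it stood at 6.85, 6.66, 6.64, 6.61 and 6.59. SAMR1 replicate 5, at 6.76, lay below exercised replicate 1. The difference between exercised SAMP8 and SAMR1 was -0.37 ± 0.09, or 1.30-fold lower, with an adjusted p of 0.0277, and that between the sedentary lines was -0.18 ± 0.09. With only the 10 arrays compared the adjusted p was 0.0872, and without SAMR1 replicate 1, 3 or 4 or exercised replicate 2, 3, 4 or 5 it reached 0.0771.

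Txnrd1 stood at 11.99, 12.12, 12.14, 12.12 and 12.16 in exercised SAMP8, above all SAMR1 arrays. The difference of 0.28 ± 0.08 had an adjusted p of 0.0801, which missed the threshold, and 0.0463 with the block over all 15 arrays. That block pairs the exercised arrays by number alone, and 4 of 10 arrays in this comparison correlated best with their own number. Gsta4 stood at 9.90, 9.88, 9.97, 10.06 and 10.13, below all SAMR1 arrays, with a difference of -0.29 ± 0.10 and an adjusted p of 0.131. Srxn1 was the other gene without overlap, at 0.14 higher with an adjusted p of 0.371. Gstm1 differed by -0.40 and had an adjusted p of 0.155, or 0.0431 without exercised replicate 5. Gclc and Gstm2 differed by -0.25 and 0.62 and did not pass the test.

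**Figure D4:**
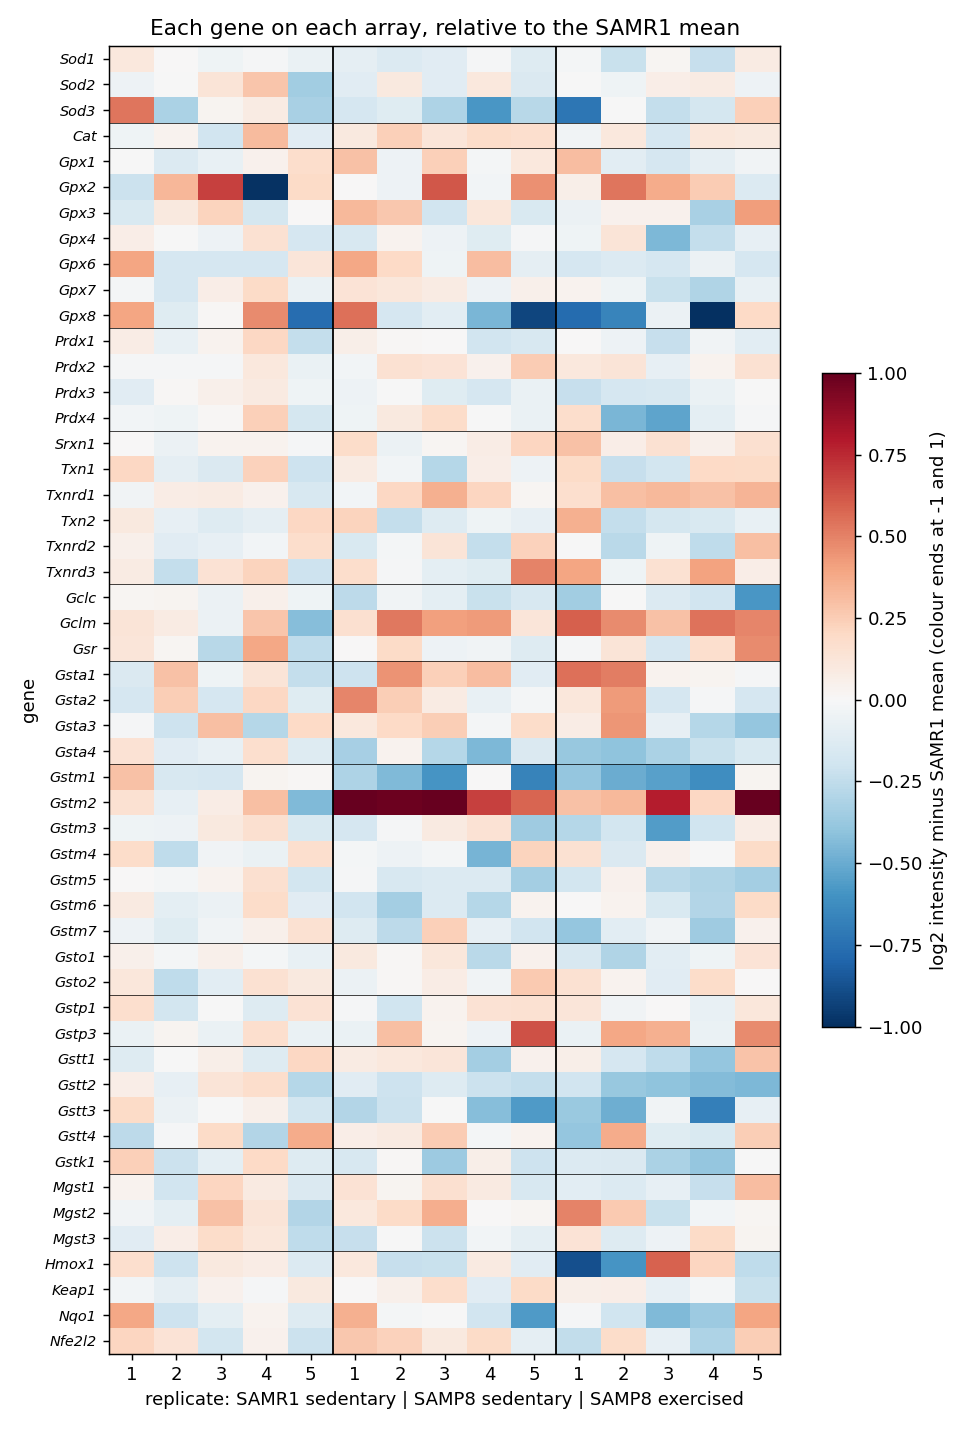
Each row is 1 of the 51 genes and each column 1 of the 15 arrays, and the colour is the log2 intensity minus the SAMR1 mean of that gene, with the colour scale ending at -1 and 1. Gstm2 is the row with the strongest colour in sedentary SAMP8 (8.75 to 9.44 against a SAMR1 mean of 8.17), while most rows stay near 0.

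Other genes of the same pathways, taken from lists by function, were counted in the same fits. Of all genes, 2.63% were called between the sedentary lines, 0% for exercise within SAMP8 and 3.6% between exercised SAMP8 and SAMR1. The shares of 1 in 41 (2.44%) and 1 in 45 (2.22%) met below are near or under these. Of 41 other glutathione and thioredoxin genes, 1 was called higher and 0 lower between the sedentary lines, namely Anpep, an aminopeptidase that splits the cysteinyl-glycine left by glutathione breakdown (0.67 ± 0.17, adjusted p = 0.0399). Anpep is also one of the pericyte markers below. Of these 41, Hpgds, a glutathione-using prostaglandin D synthase, was lower in exercised SAMP8 than in SAMR1 (-0.59 ± 0.11, adjusted p = 0.0034) and was the only 1 called there. Of 45 other NRF2-regulated and redox genes, 0 were called between the sedentary lines, and Mt3, the brain metallothionein, was higher in exercised SAMP8 than in SAMR1 (0.58 ± 0.16, adjusted p = 0.0489). Of 17 oxidant-producing enzymes and 19 selenoprotein genes, 0 were called in any of the 3 comparisons. No gene of the 4 lists was called for exercise within SAMP8.

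Markers of other cells moved with the lines, between which 2.63% of all genes were called (1.46% higher in SAMP8). Of 18 meningeal and fibroblast markers, 5 were called higher in sedentary SAMP8 than in SAMR1, and their summed intensity ran from 20758 to 56035 in SAMR1 and from 34371 to 82501 in sedentary SAMP8. In exercised SAMP8 the sum ran from 26692 to 51328, and all 18 differences from sedentary SAMP8 were below 0, with 0 called. Of 10 pericyte and smooth muscle markers, 6 were called higher, with summed intensity of 7303 to 11787 in SAMR1, 12188 to 16474 in sedentary SAMP8 and 12302 to 14440 in exercised SAMP8. Of 18 choroid plexus markers 0 were called, 15 had differences below 0, and sums ran from 10033 to 29285 in SAMR1, from 6115 to 30153 in sedentary SAMP8 and from 4507 to 30271 in exercised SAMP8. No meningeal, pericyte or choroid plexus marker was at the floor on every array of a group. With the meningeal and choroid plexus means as covariates the Gstm2 difference was 0.90 ± 0.15 and its adjusted p 0.0051, while that of Gclm between exercised SAMP8 and SAMR1 was 0.41 ± 0.14 with an adjusted p of 0.245. The part of the pericyte markers in these results was not tested. Of 9 oligodendrocyte markers, 4 were called lower in exercised SAMP8 than in SAMR1, against 1.85% of all genes. The 13 measured markers of hippocampal neurons had a mean level of 11.997 in SAMR1, 12.17 in sedentary SAMP8 and 12.33 in exercised SAMP8. No other tissue was measured to set these levels against. Of these 13, Spink8 was called higher in sedentary SAMP8 than in SAMR1 (1.07, adjusted p = 7.7e-05), and Spink8 and C1ql2 in exercised SAMP8 than in SAMR1. Of 11 astrocyte markers, 1 was called lower between the sedentary lines, Ntsr2 (-0.63, adjusted p = 0.000529), which was also lower in exercised SAMP8 than in SAMR1. The list as a whole did not move with Ntsr2 between the sedentary lines, with 6 differences above 0, 5 below and a median of 0.02. None of 10 endothelial, 8 microglial and 5 erythroid markers was called by limma in any comparison. Between the sedentary lines 3, 0 and 2 of them had an unadjusted p under 0.05, and their median differences were 0.11, -0.04 and 0.51.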

How the data were processed

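Total RNA was extracted from whole hippocampus and made into Cy3-labelled cRNA, per the labels' protocols. The authors deposited linear intensity values, 1 column per array, and limma is named without a version, per the submitters' processing notes. A scanner, background step or filter was not given in the sources used here. Of 45220 rows, 34479 had values. Array medians of 207.75 to 208.67 and nearly identical sorted values are what quantile normalization leaves, as read from the values. Features were named through the platform annotation (27968 with 1 symbol, 38 with several, 6473 unlisted, the last 2 left out), giving 16401 genes.

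Intensities were raised to the 5th percentile (39.17) and taken to log2 from the deposited intensity. The feature with the highest mean log2 stood for a gene. A linear model with 1 term per group was fitted to all 15 arrays by limma 3.58.1 under R 4.3.3 (lmFit, then eBayes; two-sided), a step also tested on simulated data. A gene counted as called under an adjusted p of 0.05 (Benjamini-Hochberg). The 5 arrays per group limit the precision.

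After group means were taken out, same-numbered sedentary arrays correlated in 5 of 5 pairs (r = 0.27, 0.23, 0.38, 0.52 and 0.42), each above 0.1, so these arrays were taken as pairs from the data and the shared replicate numbers. Alternatives were no floor, a floor at the 20th percentile, each array centred on its median, limma's array weights, no features of the dimmest 40%, the mean of all features, only the arrays compared, the replicate block, limma's trend and robust options, marker means as covariates, and each array left out. Named genes were members, with per-array values for those called, near the threshold or with the 5 lowest p in a comparison, and list genes that were called. Members and lists were chosen with earlier results of these data known. Promoter sequences and gene order are RefSeq's (GRCm38.p6).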

Additional observations from a re-analysis of the deposited data

Results flagged for a closer look

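Within a group of 5 arrays, a value was picked out where its gap to the nearest other array was over 0.71 of the group's range. Of 153 groups looked at, 8 were picked, and chance alone picks about 1 in 20. Of the 8 values, 4 came from exercised SAMP8 replicate 1: Gpx1 at 12.8, Txn2 at 12.96 and Gstt2 at 6.85 were above the rest of their group, and Txnrd1 at 11.99 was below it. In exercised SAMP8 replicate 4 Gpx6 stood above its group at 5.41, where 3 of the 5 arrays were at the floor. In exercised SAMP8 replicate 5 Mgst1 stood above its group at 9.44. In sedentary SAMP8 replicate 4 Gsto1 and Gstt1 stood below their group at 11.67 and 6.08.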

How the results depend on the processing

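Between the sedentary lines the 1 gene called became 0 with the floor at the 20th percentile and with the replicate block over all 15 arrays. All genes called there moved from 431 to 648 with the replicate block in the 10 arrays compared and to 178 with marker means as covariates. Between exercised SAMP8 and SAMR1 the 2 genes called became 0 without the dimmest 40% of genes (where Gclm and Gstt2 were not tested), 0 with only the 10 arrays compared, 0 with the replicate block in them, 1 with limma's trend and robust options and 1 with the covariates, and all genes called moved from 590 to 323 with that block and to 304 with the covariates. Leaving out 1 array at a time gave 0 to 1 genes of the set and 336 to 472 of all genes between the sedentary lines, 0 to 0 and 0 to 1 for exercise within SAMP8, and 0 to 2 and 406 to 598 between exercised SAMP8 and SAMR1. In this last comparison, over all alternatives, Gclm and Gstt2 each lost the call in 11, while Txnrd1 gained one in 2. Equal counts of called genes can therefore hold different genes. Same-numbered arrays correlated at -0.10 to 0.35 for exercise within SAMP8 and at 0.01 to 0.37 against SAMR1, with 2 and 4 of 10 arrays correlating best with their own number. Above 0.1 were 1 of 5 and 2 of 5 pairs. The highest was that of replicate 4 in both comparisons. The exercised arrays were therefore not taken as pairs. No gene of the set was called for exercise under any alternative run. With the floor at the 20th percentile Gpx6 had no difference to give, since its sedentary and exercised SAMP8 values all lay at the floor. The background step is unknown, and dim genes carry less of their true change.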

Other observations

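Mgst1, a microsomal transferase, showed no call between the sedentary lines (0.05 on the log2 scale). Of its 10 nearest tested genes in the RefSeq order, 4 were called there: Rerg, Ptpro, Eps8 and Plekha5. Over all genes 2.63% were called, and Mgst1 had the most called neighbours of the 51 genes looked at. Around each of Gstm2, Gclm and Gstt2, 0 of 10 were called between the sedentary lines, which is near the share over all genes. Amigo1, just beyond the 10 of Gstm2, was called.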
